A study of Arabidopsis thaliana with 4 samples.

Results

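Alpha-expansins were examined in Arabidopsis thaliana plants of an albino mutant line, DS 13-2198-1, and in segregants of normal appearance. Members were the probe sets annotated to a single gene whose symbol is EXPA followed by a number, which gave 10 genes (EXPA4, EXPA7, EXPA8, EXPA9, EXPA15, EXPA16, EXPA18, EXPA20, EXPA21 and EXPA24) of the 13356 genes with such a probe set. They are 10 of the 26 alpha-expansin records in the TAIR10.1 gene table. A further 4 records (EXPA22, EXPA23, EXPA25 and EXP26) shared a probe set with another expansin, and the other 12 are not analysed here.

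The albino group held 2 arrays and the control group 2 arrays, each array a hybridization of cRNA made from total RNA. Both groups segregated from 1 parental line, and the labels name neither the disrupted gene nor the genotype of the normal plants. Plants of both groups shared plates of dilute Murashige-Skoog medium that held 2% sucrose and were sampled at 3 weeks, after growth at 23 °C with 16 h of light a day. Group membership follows the sample titles, since the free-text description gives every sample, albino ones included, as wild type germinating seedlings. That description also conflicts with the age of 3 weeks, which could not be checked. No targeted transcript was available to check the titles.

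Expansins are secreted proteins of the plant cell wall. They loosen the contacts between cellulose and other wall polymers without cutting them, act best in an acidified wall, and so let turgor enlarge the cell. Alpha-expansins are the largest branch of the family, and different members are used by different organs and cell types. EXPA7 and EXPA18 are known from root hairs, and EXPA8 has been described downstream of basic helix-loop-helix factors that promote cell elongation.

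Values are log2 RMA probe-set summaries, so a difference of 1 is a 2-fold change. The medians of the arrays were 5.85 and 6.12 in albino replicates 1 and 2 and 5.84 and 6.12 in control replicates 1 and 2. Value distributions were thus alike within a replicate number and differed between the numbers. For this reason each difference is also given within pair 1 (the arrays numbered 1) and pair 2 (those numbered 2). Pearson's r across probe sets was 0.970 between the albino arrays and 0.968 between the control arrays, and 0.962 and 0.988 between the albino and control arrays of pair 1 and pair 2. The arrays numbered 2 were thus more alike than the replicates of either group. No statement in the labels says that replicates were separate pools of plants, so errors cover only the spread between these arrays.

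EXPA8 stood higher on both albino arrays, and none of the other 9 members had a difference of comparable size. Within pair 1 the other 9 lay between -0.87 and 0.56, and within pair 2 between -0.22 and 0.44, against 3.09 and 2.38 for EXPA8. With limma (two-sided, Benjamini-Hochberg adjustment over all 22746 probe sets), 0 of the 10 members passed an adjusted p of 0.05, as did 0 probe sets of the whole array (0.0% in each direction). At an unadjusted p under 0.05 there was 1 member, EXPA8, while 5.76% of all probe sets reached that level. With the replicate number as a block, EXPA8 was again the 1 member at that level, which 14.7% of all probe sets reached.

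**Figure D1:**
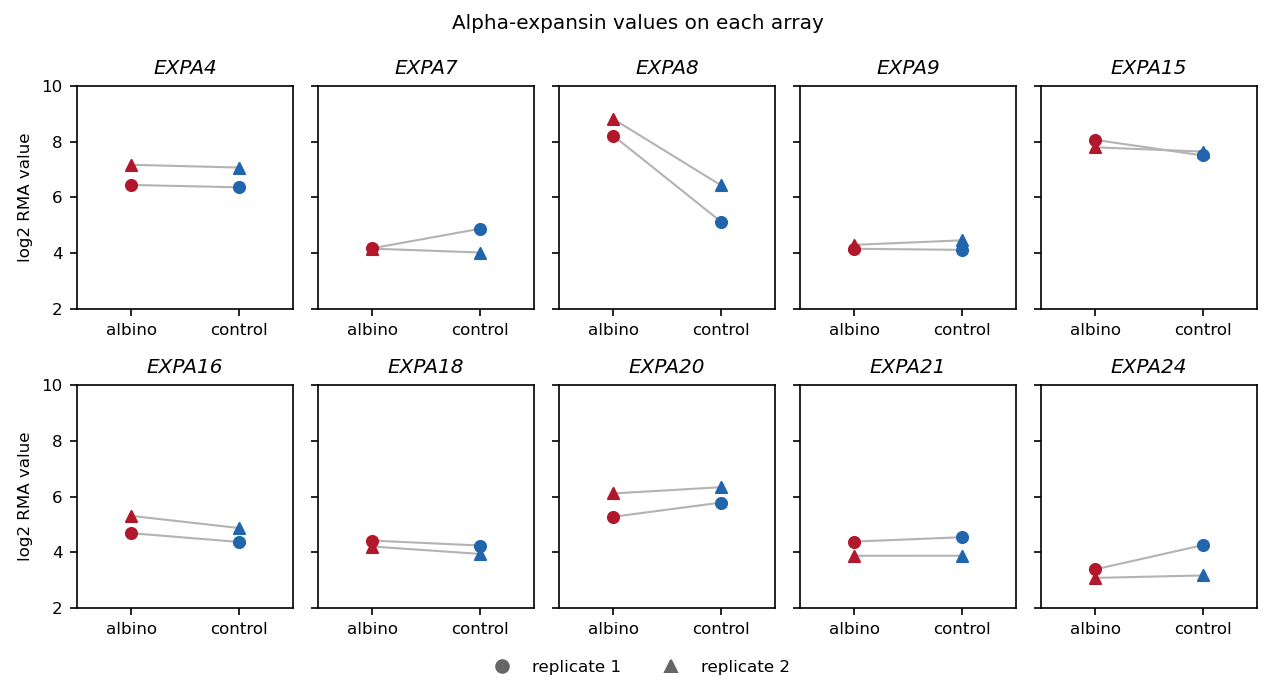
Log2 RMA value (vertical axis) of each alpha-expansin on the albino (left, red) and control (right, blue) arrays, with circles for replicate 1, triangles for replicate 2 and grey lines joining arrays of the same number. EXPA8 is the panel with steep lines in both pairs, at 8.22 and 8.81 on the albino arrays against 5.12 and 6.43 on the control arrays.

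EXPA8 (AT2G40610) had log2 values of 8.22 and 8.81 in albino replicates 1 and 2, against 5.12 and 6.43 in control replicates 1 and 2. Both albino values lay above both control values, and the lower control value was that of replicate 1. The group means were 8.52 ± 0.42 in albino and 5.78 ± 0.93 in control plants (SD, n = 2 each). The difference was 2.74 (SE 0.49, 95% interval 1.51 to 3.96, limma adjusted p = 0.59). It corresponded to 8.54-fold in pair 1 and 5.22-fold in pair 2. Of all probe sets, 83.1% and 87.1% had a value no higher than EXPA8 in albino plants, against 40.5% and 53.8% in control plants, so it stood in the upper part of the distribution in albino plants and near the middle in control plants. The size of its change ranked 3 among the 22746 probe sets by the smaller of the pair differences. The gene was singled out for that size, so its rank, interval and p-values support nothing further. Being at least 2-fold higher in both pairs was shared by 185 probe sets (0.813%), and EXPA8 was the 1 of the 10 members among them. It was also the 1 member at least 0.5 higher in both pairs, against 3.68% of all probe sets.

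Among the 9 other members, those nearest to EXPA8 in direction were EXPA16, EXPA15, EXPA18 and EXPA4, each higher in both pairs. With EXPA8 this made 5 of 10 members, against 34.6% of all probe sets, and 3 members (EXPA20, EXPA21 and EXPA24) were lower in both pairs, against 28.5%. The remaining 2, EXPA7 and EXPA9, went opposite ways, against 36.7%. Taken pair by pair, 6 of 10 members were higher in pair 1 and 6 in pair 2, against 50.9% and 55.1% of all probe sets. The median difference of the 9 was -0.06 (0.04 in pair 1 and 0.10 in pair 2), and that of all probe sets was 0.02 (0.01 and 0.03). The 9 other members measured here were therefore spread about the centre of the array with both signs.

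EXPA16 (AT3G55500) had values of 4.68 and 5.31 in albino plants, against 4.37 and 4.87 in control plants. The groups overlapped, because replicate 2 was the higher array in both. Its difference was 0.38 (SE 0.34), or 0.32 in pair 1 and 0.44 in pair 2, which is 1.24-fold and 1.35-fold. Its 95% interval reached up to 1.22, the highest upper bound among the 9.

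EXPA15 (AT2G03090) was measured at 8.06 and 7.80 in albino plants, against 7.50 and 7.64 in control plants. As for EXPA8 the groups did not overlap, which held for 2 of 10 members in the upward direction and for 16.2% of all probe sets. The difference was 0.36 (SE 0.26), and it was 0.56 in pair 1 but 0.15 in pair 2. The pair 1 difference was the larger one for EXPA15 and EXPA8, whereas pair 2 gave the larger one for EXPA16 and EXPA18.

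EXPA4 (AT2G39700) read 6.45 and 7.17 in albino plants, against 6.36 and 7.07 in control plants. Its pairs differed by 0.09 and 0.10, while the arrays of 1 group differed by 0.72 (albino) and 0.71 (control). The gap between replicate numbers was thus several times the gap between groups. The difference of the means was 0.09 (SE 0.39, 95% interval -0.87 to 1.06), an interval that spans changes of about 2-fold in either direction. The difference was -0.27 without albino replicate 2 and -0.26 without control replicate 1.

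**Figure D2:**
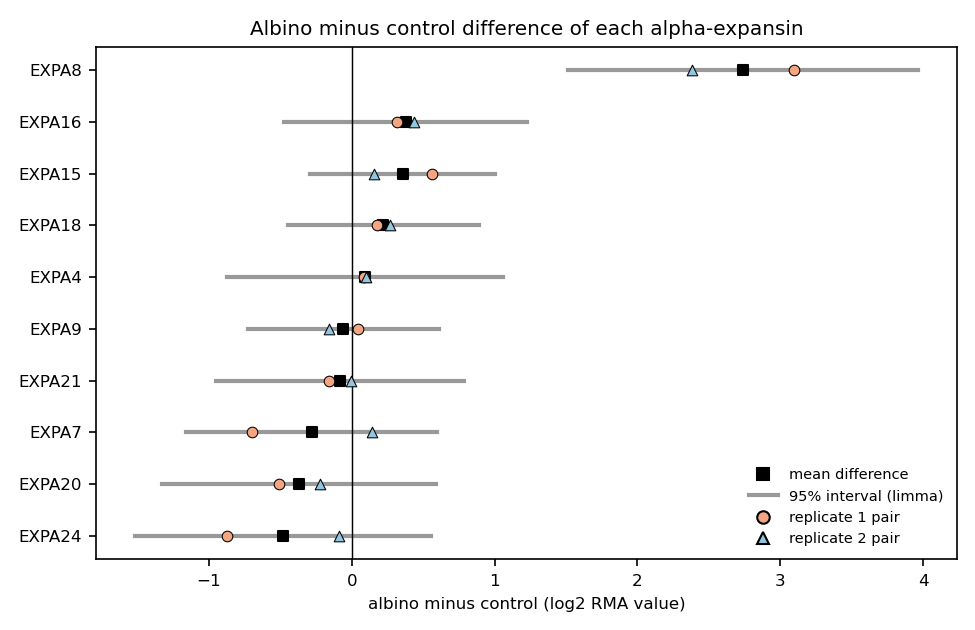
Albino minus control difference in log2 RMA value (horizontal axis) for each alpha-expansin, with black squares for the mean difference, grey bars for its 95% limma interval, circles for pair 1 and triangles for pair 2. The interval of EXPA8 (1.51 to 3.96) lies above 0 and above those of the other 9, each of which spans 0. EXPA8 was singled out for its size of change, so this separation supports nothing further.

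The root hair expansins did not share the difference of EXPA8. EXPA18 (AT1G62980) had values of 4.42 and 4.21 in albino plants, against 4.24 and 3.94 in control plants, a difference of 0.22 (SE 0.27). EXPA7 (AT1G12560) had 4.17 and 4.16 in albino plants, against 4.87 and 4.02 in control plants. Its highest value was that of control replicate 1, and its sign differed between the pairs (-0.70 and 0.14), with a mean difference of -0.28 (SE 0.35) that became 0.15 without control replicate 1.

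Both root hair genes were dim. EXPA18 lay between the 26.9th and the 29.8th percentile of the arrays and EXPA7 between the 25.8th and the 37.0th, a range where RMA compresses differences. On these arrays PYK10, a beta-glucosidase abundant in roots, was at 8.89 and 10.19 in albino plants, against 11.18 and 10.86 in control plants. PYK10 thus differed by -1.48 (SE 0.47, limma adjusted p = 0.75), which came to -2.29 for the arrays numbered 1 and -0.67 for those numbered 2. In whole plants fewer cells of a type and less RNA per cell cannot be told apart, and the part of root content in the values of EXPA7 and EXPA18 was not tested. PYK10 was the 1 of 11 listed root marker symbols that matched a single-gene probe set, and EXPA7 and EXPA18 were the 2 of 25 for root hairs.

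EXPA20 (AT4G38210) had values of 5.27 and 6.11 in albino plants, against 5.78 and 6.34 in control plants. It was lower in both pairs (-0.51 and -0.22), although the groups overlapped and the difference of -0.37 (SE 0.39) was no larger than its error. Without albino replicate 1 it was 0.0517. EXPA9 (AT5G02260) had values of 4.15 and 4.29 in albino plants, against 4.11 and 4.45 in control plants. All 4 arrays lay within a narrow range, and the pairs disagreed in sign (0.04 and -0.16), with a mean difference of -0.06 (SE 0.27) that was 0.01 without albino replicate 1 and 0.11 without control replicate 2.

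EXPA21 and EXPA24 are the outer genes of a run of 6 consecutive alpha-expansin genes in the TAIR10.1 table, EXPA21, EXPA22, EXPA23, EXP26, EXPA25 and EXPA24. EXPA24 (AT5G39310) had values of 3.39 and 3.08 in albino plants, against 4.26 and 3.17 in control plants. Control replicate 1 stood above the other 3 arrays, giving differences of -0.87 (pair 1) and -0.09 (pair 2). The mean difference of -0.48 (SE 0.42) became 0.06 without that array. EXPA21 (AT5G39260) had 4.38 and 3.87 in albino plants, against 4.54 and 3.88 in control plants, with pair differences of -0.16 and -0.0024. Its place among the members lower in both pairs rests on that last value, and its mean difference of -0.08 (SE 0.35) became 0.25 without control replicate 1 and 0.18 without albino replicate 2.

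The 4 genes between them were read by 2 shared probe sets, each of which reports on 2 genes that cannot be separated. The probe set of EXPA23 and EXPA25 was at 4.03 and 3.90 in albino plants, against 6.13 and 3.93 in control plants. Control replicate 1 was the high array again, and the pairs differed by -2.10 and -0.03. The probe set of EXPA22 and EXP26 had 3.14 and 2.96 in albino plants, against 3.36 and 2.78 in control plants. Control replicate 1 was the highest array for 4 of the 4 probe sets of this run, and for 24.0% of all probe sets. That trait was not particular to the run. Control replicate 1 was also the highest array for other dim genes such as EXPA7 (4.87), EXPB2 (4.64) and MUTE (4.81), though not for EXPA9 or EXPA18. Neighbouring paralogs can share hybridization signal, so the 4 probe sets of the run may not be independent readings, which was not tested.

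The question of which members share the change of EXPA8 was also put as a difference within each array, EXPA8 minus the member, which cancels whatever shifts both probe sets of an array alike. Because EXPA8 was singled out for its large difference and enters all 9 contrasts, their direction was fixed by that choice, and only their sizes are described. Its albino minus control difference lay between 2.53 and 3.97 in pair 1 and between 1.95 and 2.61 in pair 2. The smallest mean difference was that against EXPA16 (2.36) and the largest that against EXPA24 (3.22). With 2 arrays a group, the exact permutation test (two-sided) allows no p below 0.333, and each of the 9 comparisons gave that value before and after Benjamini-Hochberg adjustment over them. That p would carry no weight at any number of arrays, since EXPA8 was chosen for its values.

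**Figure D3:**
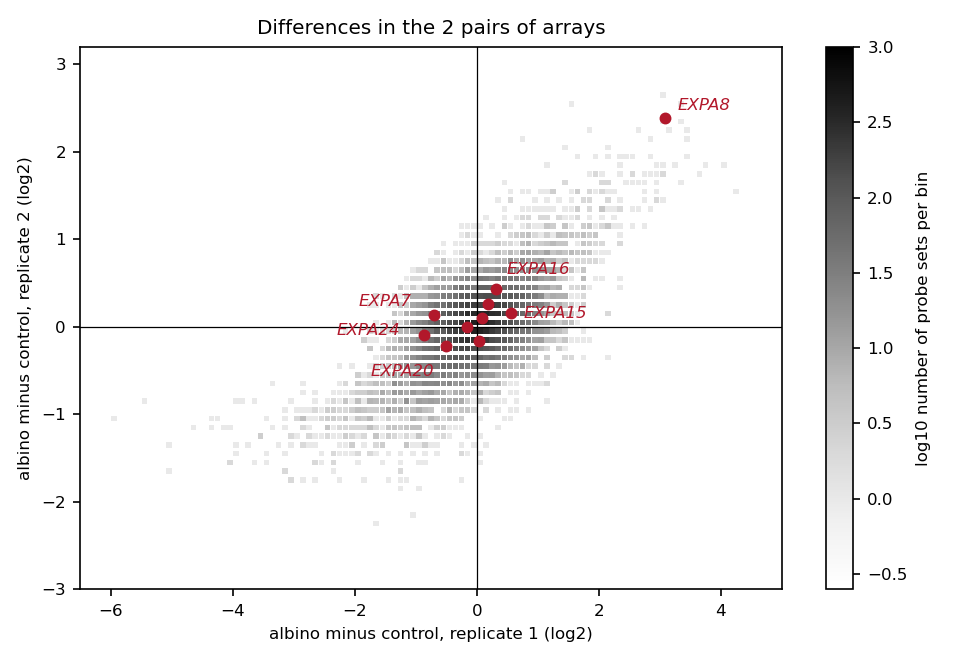
Albino minus control difference (log2) in pair 1 (horizontal) against pair 2 (vertical), with grey squares shaded by the log10 number of probe sets per bin and red points for the 10 alpha-expansins. EXPA8 lies at 3.09 and 2.38 at the upper right edge of the cloud. The other 9 lie between -0.87 and 0.56 horizontally and between -0.22 and 0.44 vertically, with EXPA24 and EXPA7 furthest left.

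Levels of EXPA8 also differed between arrays of the same group. Control replicate 2 exceeded control replicate 1 by 1.31, and albino replicate 2 exceeded albino replicate 1 by 0.60. Other members had replicate gaps of both signs in control plants, from -1.09 for EXPA24 and -0.85 for EXPA7 to 0.71 for EXPA4. The SE of EXPA8 (0.49) was the highest among the 10 members, whose lowest was 0.26.

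By the smallest Euclidean distance over the 4 values, each centred on its own mean, the genes outside the family most like EXPA8 were AT1G62770 (distance 0.62), AT4G11290 (0.68), AT3G12710 (0.70), the jacalin-related lectin gene JAL23 (0.73) and the thionin gene THI2.1 (0.77). Among single-gene probe sets, the nearest member of the family itself was EXPA16, at a distance of 2.43, with EXPA15 next at 2.59. Counting EXPA8 itself, 1062 single-gene probe sets came before EXPA16 and 2091 before EXPA15. Likeness by this distance rests on 4 arrays and on the size of the group difference, which the comparison shares by construction.

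AT1G62770 had values of 9.58 and 9.33 in albino plants, against 6.09 and 7.21 in control plants, with pair differences of 3.49 and 2.13. Like EXPA8, it was lowest on control replicate 1, and so were the other 4 of these genes. THI2.1, which codes for an antimicrobial peptide, had 11.92 and 11.84 in albino plants, against 9.18 and 10.29 in control plants. The limma adjusted p of these 5 genes lay between 0.59 and 0.733.

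**Figure D4:**
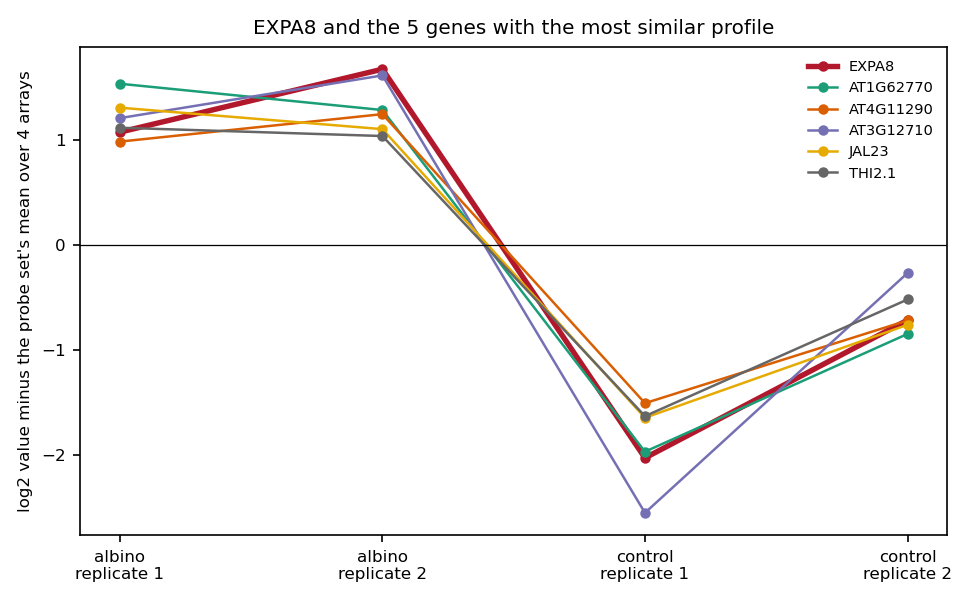
Log2 value minus the probe set's own mean over the 4 arrays (vertical axis) for EXPA8 (thick red line) and the 5 genes nearest to it, with 1 point per array and lines joining the points of a gene. Each of the 6 profiles is above 0 on both albino arrays and lowest on control replicate 1.

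The genes next to EXPA8 on its chromosome did not share its difference. Of the 3 protein-coding genes on either side in the TAIR10.1 table, 5 of 6 had a single-gene probe set. Their differences ran from -0.29 to 0.85 in pair 1 and from -0.27 to 0.44 in pair 2.

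The rest of the expansin superfamily was represented by 8 of the 10 genes listed, the beta-expansins EXPB1, EXPB2, EXPB3 and EXPB5 and the expansin-like genes EXLA1, EXLA2, EXLA3 and EXLB1. Of these 0 passed limma's test. In both pairs 4 were higher, against 34.6% of all probe sets, and 2 lower, against 28.5%. Their median difference was 0.27 (0.05 in pair 1 and 0.33 in pair 2). EXLA1, the member with the smallest p, went the other way from EXPA8. It had values of 8.59 and 9.07 in albino plants, against 9.78 and 9.39 in control plants, a difference of -0.75 (SE 0.31, limma adjusted p = 0.873). The 2 groups of EXLA1 did not overlap, which held in the downward direction for 13.6% of all probe sets. EXLA3, of the same branch, had 4.56 and 4.70 in albino plants, against 4.19 and 4.25 in control plants, so EXLA1 and EXLA3 differed in sign.

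Xyloglucan endotransglucosylase/hydrolases (XTH), which cut and rejoin the xyloglucan that ties cellulose fibres together, also act in wall loosening. Of 33 listed genes 9 matched a single-gene probe set by symbol, and 0 of these passed limma's test. Of the 9, 2 were higher in both pairs, against 34.6% of all probe sets, and 4 lower in both, against 28.5%. The median difference was -0.20 (-0.31 in pair 1 and -0.06 in pair 2). XTH18 had values of 5.35 and 6.80 in albino plants, against 7.45 and 7.98 in control plants (difference -1.64, SE 0.52). XTH29 had 3.89 and 4.49 in albino plants, against 5.21 and 5.65 in control plants (difference -1.24, SE 0.33). These were the 2 of the 9 matched genes at least 2-fold lower in both pairs, a size reached by 219 probe sets (0.963%). XTH19, a close relative of XTH18, was higher in both pairs, by 1.71 and 0.46.

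**Figure D5:**
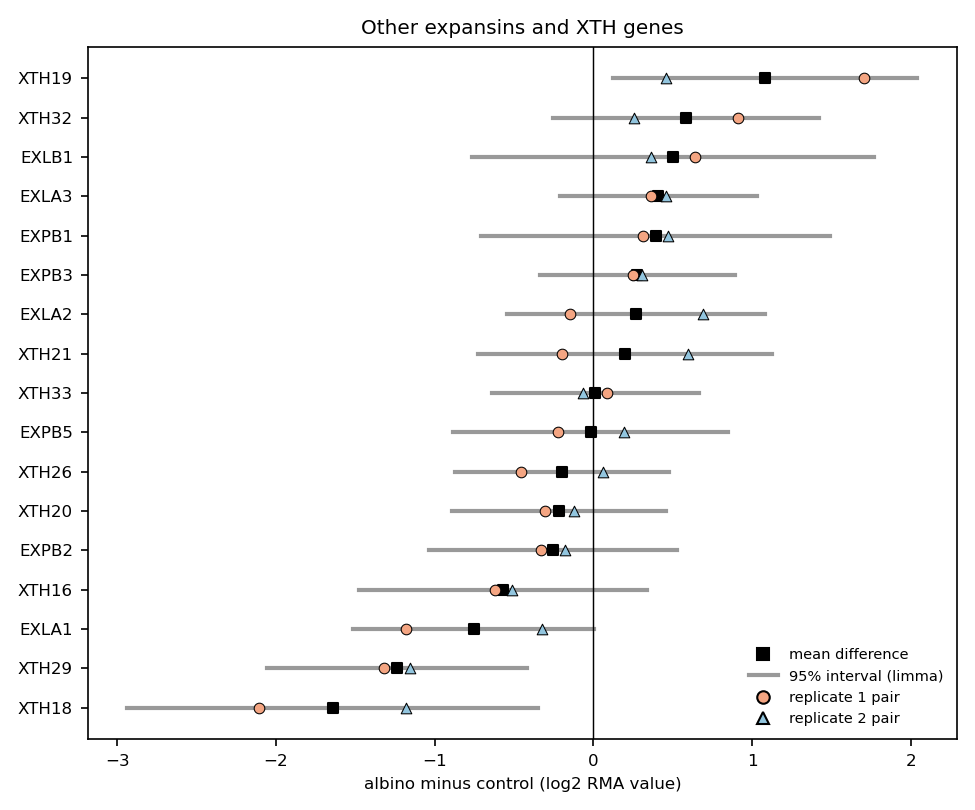
Albino minus control difference in log2 RMA value (horizontal axis) for the 8 other expansin superfamily genes and the 9 XTH genes measured, with black squares for means, grey bars for 95% limma intervals, circles for pair 1 and triangles for pair 2. XTH18 and XTH29 lie lowest, at -1.64 and -1.24, and no gene reaches the 2.74 of EXPA8.

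Of 35 listed regulators of growth 3 matched a single-gene probe set by symbol, and 0 of them passed limma's test. TCP15, a transcription factor of organ growth and the gene of this list with the smallest p, was at 7.61 and 7.95 in albino plants, against 6.54 and 7.21 in control plants, a difference of 0.91 (SE 0.33, limma adjusted p = 0.802). EIN3, a transcription factor of ethylene signalling, was higher in both pairs (0.46 and 0.29), and HAT2, an auxin-inducible homeobox gene, differed by 0.01 (SE 0.30). None of the 27 listed wall acidification genes matched a single-gene probe set by symbol. Among markers of other tissues, the mesophyll gene RCA differed by 0.21 (SE 0.25) and was higher in both pairs. The guard cell lineage genes SPCH and MUTE differed by -0.16 (SE 0.32) and -0.08 (SE 0.44), and the shoot meristem gene CLV3 by -0.20 (SE 0.54). SPCH, MUTE and CLV3 were each lower in pair 1 and higher in pair 2, while 36.7% of all probe sets went opposite ways. They were dim, reaching at most the 38.8th (SPCH), 36.0th (MUTE) and 40.3rd (CLV3) percentile of an array. SPCH and MUTE were the 2 of 10 listed guard cell symbols matched, CLV3 the 1 of 6 for shoot meristem and RCA the 1 of 8 for mesophyll. Of the listed xylem and flower markers 0 matched a single-gene probe set by symbol.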

How the data were processed

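The authors deposited log2 values of 22746 probe sets for each of 4 arrays, made with RMA per the submitters' processing notes. The RMA software, its version and the arrays it processed together are not given in these sources. In GEO's platform annotation 13513 probe sets had 1 gene, 503 several and 8730 none. Symbols were matched to the TAIR10.1 table by gene identifier (13436 matched), which was used for names and gene neighbours only. Listed genes were matched by symbol only to single-gene probe sets, so an unmatched gene may still have a probe set on the array.

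Differences (albino minus control) were fitted with limma 3.58.1 in R 4.3.3 (lmFit, eBayes, two-sided) over all probe sets, with no covariate, and the fit was checked on simulated data. Precision is limited by there being 2 arrays a group. Overlap, background shares and distances were computed in Python 3.11.15. Members and lists were chosen with earlier results of these data known. Named genes outside the family were the 5 nearest to EXPA8 in centred value, the smallest p of each list, and list members past 2-fold in both pairs. XTH19, EXLA3, EIN3, HAT2 and marker genes were named after their values were seen. Alternatives were other scalings, filters, variance priors, a replicate block and each array left out in turn. No sequences were used here.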

Additional observations from a re-analysis of the deposited data

How the results depend on the processing

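EXPA8 kept its sign under each of 14 alternatives, with differences from 2.08 (without control replicate 1) to 3.39 (without control replicate 2) and limma adjusted p from 0.0642 (without albino replicate 2) to 1.00. With the replicate block its limma adjusted p was 0.217 (difference 2.74, SE 0.23), and 0 members and 0 probe sets were called. Same-numbered arrays deviated together from their group means (correlation across probe sets 0.663), but with 2 pairs and no label behind it this does not show that the numbers pair the samples. Block and quantile normalization together, chosen after seeing the data, gave EXPA8 2.81 and an adjusted p of 0.116. Over the whole array 1 probe set was called lower with no moderation. The fits without 1 array gave 0 to 30 higher and 0 to 152 lower, the upper figures without albino replicate 2, and 0 members in any. Counts of members higher and lower in both pairs (5 and 3) became 3 and 0 without the dimmest 50%, which left 3 members, and 1 and 0 at 0.5 or 1 in each pair. The fits without 1 array changed the sign of 6 members, whose differences ran from -0.27 to 0.45 for EXPA4, -0.71 to 0.15 for EXPA7, -0.23 to 0.11 for EXPA9, -0.79 to 0.0517 for EXPA20, -0.41 to 0.25 for EXPA21 and -1.02 to 0.06 for EXPA24. The cause of these changes was not tested. No scaling changed a member's sign. Filters, variance priors and the block alone could not, since they leave the fitted difference unchanged. Dim signal limits EXPA7, EXPA9, EXPA18, EXPA21 and EXPA24, which were under the 40th percentile on every array.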
